A study of Mus musculus with 14 samples.

Results

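Plasma cells taken from mouse spleen 7 days after immunization were compared with naive B cells of unimmunized mice over every gene measured on the arrays. The comparison used 7 of the 14 arrays of the study, chosen by their titles: 4 arrays of plasma cells and 3 of naive B cells. The other 3 arrays of germinal center cells and 4 of memory B cells entered the fit for its estimate of spread, and gave direct comparisons for some of the genes named. All cells came from male C57Bl/Ka mice. The plasma cells came from mice aged 5 to 9 weeks that had received the hapten protein NP-CGG in alum. The dose was 100 µg, but the label of plasma replicate 1 gives none. They were sorted as syndecan-1-positive, NP-binding, lambda-positive, PNA-negative cells with low B220 and low IgM. The naive cells came from mice aged 4 to 8 weeks and were sorted on B220, CD23, IgD, lambda and low IgM. T cells (CD3, CD4, CD8, CD5), myeloid cells (CD11b, Gr-1) and red cells (Ter119) were gated out of both. Immunization, antigen binding, age and sort gates differ together between the groups and cannot be told apart. The labels do not state whether each replicate was a separate animal, so p-values reflect the spread among these samples alone, part of which may be technical.

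Plasma cells are B cells that have stopped presenting antigen and are devoted to making antibody. The factors Prdm1, Irf4 and Xbp1 shut down the B cell programme and enlarge the secretory apparatus. Antibody synthesis draws heavily on amino acids, charged transfer RNAs, sugar nucleotides and membrane, while naive B cells circulate through follicles and stay poised to signal through the antigen receptor.

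The labels held against their defining genes. All 7 plasma cell genes (Sdc1, Prdm1, Xbp1, Irf4, Jchain, Tnfrsf17 and Bhlha15) were higher in plasma cells, and their summed intensity was 27642 to 37419 in plasma cells, against 2923 to 3285 in naive cells. Of 7 naive B cell genes measured, 6 (Ms4a1, Fcer2a, Cd22, Cr2, Pax5 and Ebf1) were lower and Ighm was higher. Ighm carries the sequence of both membrane and secreted IgM. Some of these proteins or their products were used in the sorts. Among genes of other cells, T cell markers summed to 292 to 324 in plasma cells, against 242 to 264 in naive cells, with 3 of 15 higher (Cd3e, Cd8a and Thy1). Markers of monocytes and macrophages summed to 1062 to 1386 in plasma cells, against 413 to 427 in naive cells, with 8 of 18 higher and 1 lower. Without the cathepsin gene Ctsb, the sums were 524, 671, 282 and 496 on plasma arrays 1 to 4, against 301, 338 and 342 in naive cells, so that plasma arrays 1, 2 and 4 stayed above every naive array and array 3 fell below them. Itgam, the gene of the CD11b used for exclusion, was above background on no array of either group. Dendritic cell markers summed to 260.3 to 287 in plasma cells, against 3588 to 4020.4 in naive cells, with 3 of 10 higher (Flt3, Bst2 and Ccr9) and 1 lower (Irf8, which B cells also express). Erythroid markers summed to 121 to 137 in plasma cells, against 309 to 417 in naive cells, with 0 of 8 higher and 1 lower (Car2). In bulk RNA, fewer cells of a type and less RNA per cell cannot be told apart.

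Some genes differed widely between arrays of the same group. Correlations of log2 intensity were 0.956 to 0.984 between plasma arrays and 0.956 to 0.967 between naive arrays, over 6116 bright genes, those with a mean log2 intensity of at least 6. Among these genes, 34 ranged over more than 4-fold between plasma arrays, against 40 between naive arrays, and 8 over more than 8-fold between plasma arrays, against 4 between naive arrays. A first set of genes was very bright on plasma arrays 2 and 3 and much dimmer on array 1. Slc5a9, annotated as a sugar transporter, read 619, 17315, 15627 and 5658 on plasma arrays 1 to 4, against 174, 223 and 136 in naive cells. The carbonic anhydrase gene Car7 read 436, 18732, 16555 and 5484 on plasma arrays 1 to 4, against 173, 169 and 132 in naive cells. Sf3b4, a splicing factor gene, read 367, 15989, 11392 and 2959 on plasma arrays 1 to 4, against 139, 198 and 136 in naive cells, and Pik3cd, a lipid kinase gene of lymphocytes, read 248, 5673, 2667 and 595 on plasma arrays 1 to 4, against 77.5, 102 and 106 in naive cells. Slc5a9, Car7 and Sf3b4 also varied together on memory arrays 1 to 4. Slc5a9 read 494, 2255, 1388 and 159, Car7 321, 1779.9, 1069 and 138 and Sf3b4 285, 1084, 931 and 175 there. Whether their probe sets recognise separate transcripts was not tested. Plasma array 3 alone was high for immediate early genes, which respond within minutes to stimulation or handling. Egr1 read 60.4, 81.1, 750.3 and 51.9 on plasma arrays 1 to 4, against 513, 204 and 355 in naive cells, and Fos read 475, 435, 3992 and 484 on plasma arrays 1 to 4, against 619.8, 87.6 and 38.2 in naive cells. A further set was high on plasma arrays 1 and 4. The iron exporter gene Slc40a1, abundant in splenic macrophages, read 211, 26.7, 14.8 and 208 on plasma arrays 1 to 4, against 9.25, 8.16 and 10.8 in naive cells. Csf1r, the receptor of the macrophage growth factor CSF1, read 145, 56.04, 30.8 and 107 on plasma arrays 1 to 4, against 27.4, 33.6 and 27.4 in naive cells, and the macrophage product Cd5l read 39.1, 12.7, 11.1 and 37.6 on plasma arrays 1 to 4, against 10.2, 10.1 and 7.52 in naive cells. Against naive cells, Slc5a9, Car7, Sf3b4 and Pik3cd were called with either pair of plasma arrays, but with log2 fold changes of 6.56, 6.81, 6.44 and 5.37 on arrays 2 and 3 alone and of 3.43, 3.30, 2.75 and 2.03 on arrays 1 and 4 alone. Slc40a1, Csf1r and Cd5l were called with arrays 1 and 4 alone and did not pass with arrays 2 and 3 alone (adjusted p = 0.0908, 0.182 and 0.226). For Csf1r the log2 fold change was 2.09 with arrays 1 and 4 and 0.51 with arrays 2 and 3, while for Slc40a1 and Cd5l no naive array was above background. Of these genes only Csf1r is on the list of macrophage markers given above. Without Ctsb that list had another order, with sums of 524, 671, 282 and 496 on plasma arrays 1 to 4, highest on array 2. The part of macrophage or handling differences in the other results was not tested.

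**Figure D1:**
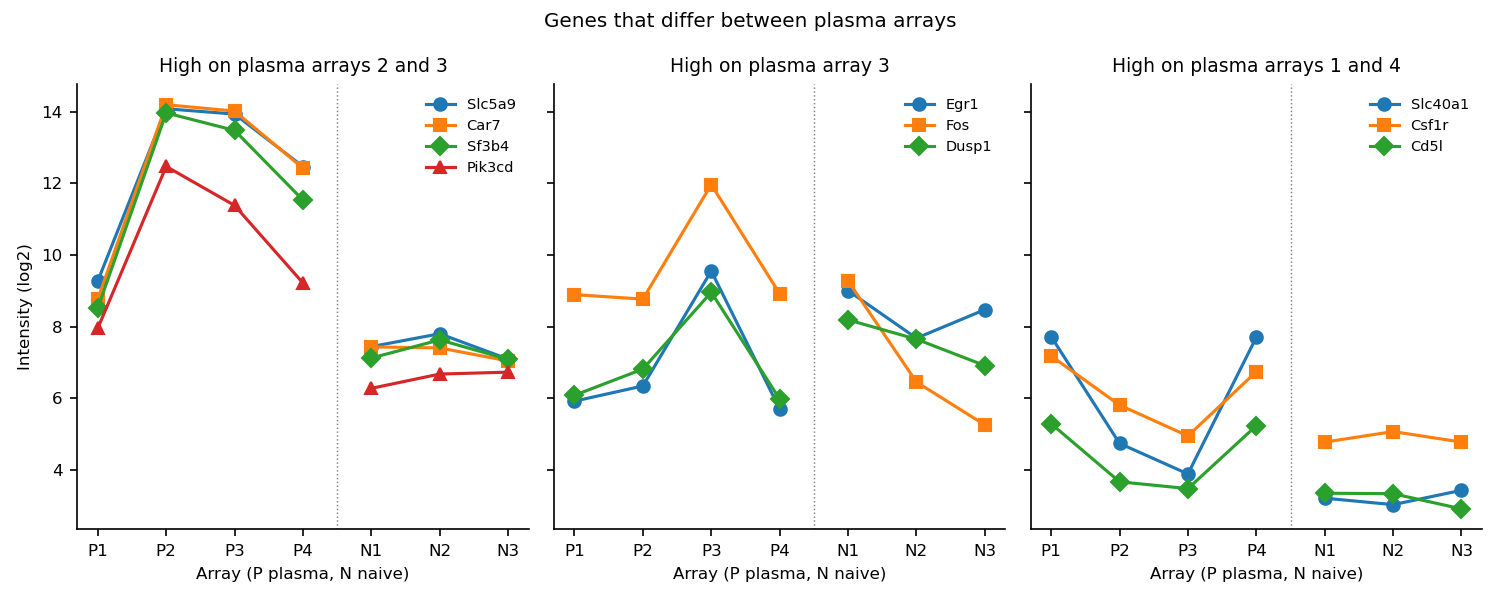
Log2 intensity (vertical axis) of 10 genes on the 4 plasma arrays and then the 3 naive arrays (horizontal axis), in 3 panels with 1 line per gene. Slc5a9, Car7, Sf3b4 and Pik3cd peaked on plasma arrays 2 and 3, Egr1, Fos and Dusp1 on plasma array 3, and Slc40a1, Csf1r and Cd5l on plasma arrays 1 and 4.

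Of 18193 genes tested, 5517 (30.3%) passed at an adjusted p under 0.05 in limma's moderated test: 2580 (14.2%) were higher in plasma cells and 2937 (16.1%) were lower. At least 4-fold changes were found for 547 genes higher and 687 lower in plasma cells, and at least 32-fold changes for 52 higher and 72 lower. Bright genes had a median log2 fold change of -0.25, so small falls of bright genes lie within this shift. The split of directions depended on scaling: 46.8% of called genes were higher as deposited, 67.4% with each array centred on its bright genes and 34.1% with each array centred on its median. Among 8648 genes above background on all 7 arrays, the 95% confidence interval of the change lay within 2-fold either way for 3619 (41.8%). These included Eef1a1, the elongation factor (-0.16 ± 0.18), a sign that turned to 0.08 with arrays centred on bright genes. Changes are given throughout as log2 fold changes, plasma minus naive, with their standard error, from 4 plasma and 3 naive arrays. Background is the brightest bacterial control on an array that was not spiked in, at 11.0 to 16.1. Where no array of the lower group was above it, the change is a bound. The plasma and naive arrays did not overlap for any single gene said below to have risen or fallen. Non-overlap was part of the rule for naming the leading genes and those of lists and families. It was not required of members of neighbour runs, of genes with opposing probe sets or of genes added later.

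**Figure D2:**
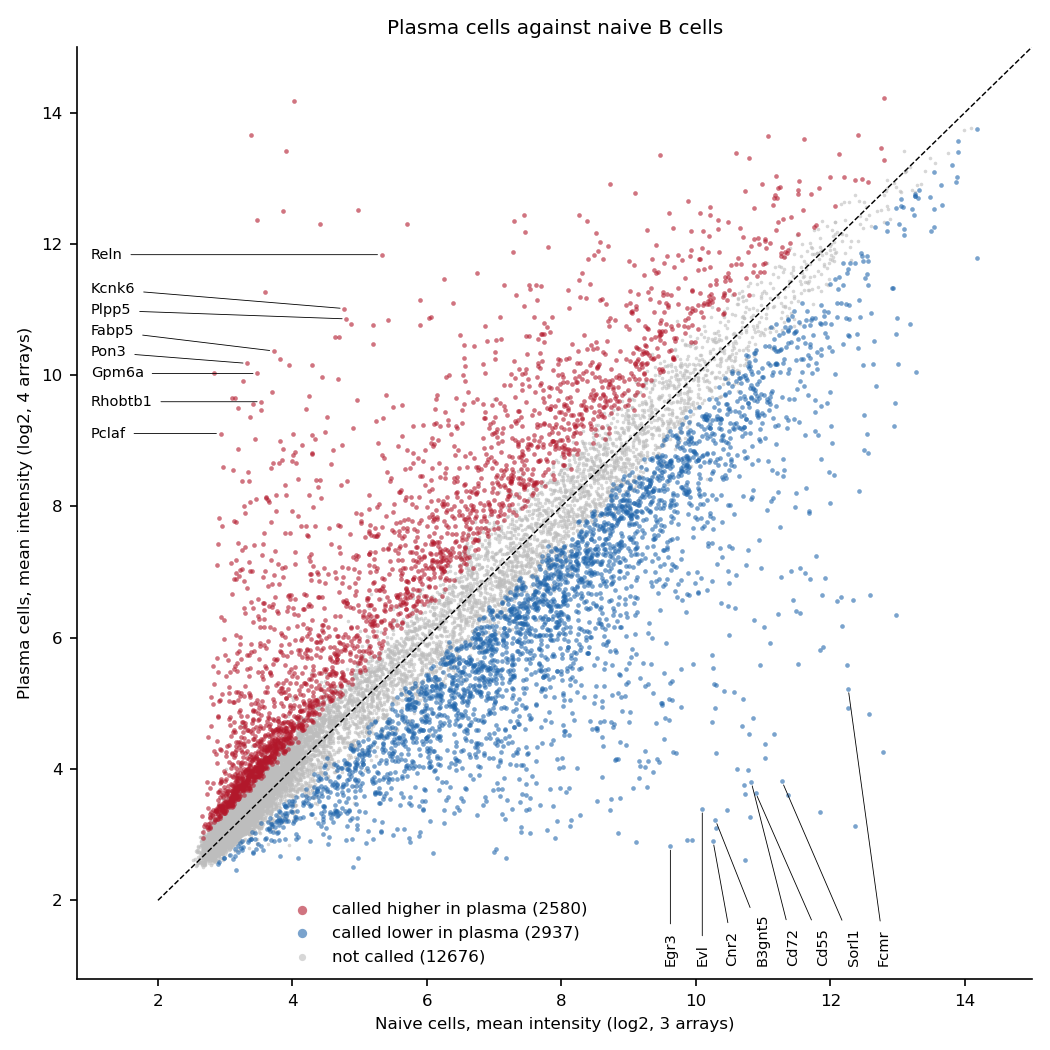
Mean log2 intensity in plasma cells (vertical axis, 4 arrays) against mean log2 intensity in naive cells (horizontal axis, 3 arrays), 1 point per gene over 18193 genes, with 2580 called higher, 2937 called lower and the others in grey. The 8 largest rises and 8 largest falls that follow the naming rule are labelled, and they reach 6.06 and more above and 6.70 and more below the diagonal of equal level.

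The genes that rose most, leaving out immunoglobulin genes and a list of genes set aside (secretion machinery, cell cycle genes such as Hmmr, well-known markers and genes already known from earlier results of these data), were a mixed group of enzymes, membrane proteins and RNA-binding proteins. Pon3, a lactonase of the paraoxonase family, read 1433, 801, 990.5 and 1593 in plasma cells, against 9.55, 14.1 and 7.52 in naive cells. It rose by 6.85 ± 0.26 with 1 of 3 naive arrays above background (adjusted p = 1.64e-10). Reln, a large secreted glycoprotein best known for guiding neurons, read 3337, 3512, 4743 and 3217 in plasma cells, against 33.8, 40.4 and 47.5 in naive cells, a rise of 6.51 ± 0.44 (adjusted p = 4.60e-08). Every plasma array was thus far above every naive array for both genes. The neuronal membrane protein Gpm6a read 1425, 801, 994 and 1042 in plasma cells, against 20.5, 8.61 and 7.80 in naive cells (6.55 ± 0.30 with 1 of 3 naive arrays above background). Fabp5, a carrier of fatty acids, rose by 6.65 ± 0.42 with 1 of 3 naive arrays above background, and the potassium channel Kcnk6 by 6.24 ± 0.33. The filamin-binding Filip1 read 690.4, 738, 526 and 693 in plasma cells, against 9.46, 13.2 and 8.83 in naive cells, and rose by 5.99 ± 0.16 with 1 of 3 naive arrays above background (adjusted p = 5.07e-12). Plpp5, a lipid phosphatase, rose by 6.06 ± 0.31, Chst1, a sulfotransferase that modifies carbohydrate chains, by 5.89 ± 0.27, and Ada, which breaks down adenosine, by 5.86 ± 0.29. Rhobtb1 rose by 6.06 ± 0.46 with 1 of 3 naive arrays above background, Fndc3b by 5.57 ± 0.21 and the drug efflux pump Abcb1b by 5.54 ± 0.37 with 2 of 3 naive arrays above background.

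For 3 of the 15 leading rises no naive array was above background. Hnrnpll, an RNA-binding protein known to change splicing during plasma cell differentiation, read 463, 612, 482 and 362 in plasma cells, against 9.98, 8.92 and 8.60 in naive cells. It was at least 36.3-fold higher (adjusted p = 9.43e-11). Cpeb3, which binds cytoplasmic polyadenylation elements, read 317, 443, 548 and 301 in plasma cells, against 7.45, 8.55 and 7.57 in naive cells, at least 30.03-fold higher. Pclaf, a partner of the DNA clamp PCNA, was at least 42.6-fold higher. Direct tests against the other subsets differed by gene. Hnrnpll was higher in plasma than in germinal center cells by 5.46 ± 0.21 (adjusted p = 2.06e-10), with 1 of 3 germinal center arrays above background, and at least 38.3-fold higher than in memory cells, where no array was. Filip1 and Fndc3b were at least 46.4-fold and at least 123-fold higher than in germinal center cells, where no array was above background for either. Pclaf differed from germinal center cells by -0.37 ± 0.30 (adjusted p = 0.440) and Ada by 0.30 ± 0.29 (adjusted p = 0.536), neither of which passed. Pclaf averaged 553 in plasma cells, against 716 in germinal center cells, and Ada 1141 in plasma cells, against 924 in germinal center cells.

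With the same genes left out, the largest falls included receptors, signalling proteins and a chromatin organiser. Sorl1, a receptor that sorts cargo between endosomes and the Golgi, read 13.1, 14.01, 13.1 and 16.4 in plasma cells, against 3327, 2082 and 2222 in naive cells. It fell by 7.46 ± 0.27 with 3 of 4 plasma arrays above background (adjusted p = 8.54e-11). Fcmr, the receptor for the Fc part of IgM, read 27.4, 44.9, 38.9 and 40.96 in plasma cells, against 5024, 5054 and 4706 in naive cells, and fell by 7.04 ± 0.20 (adjusted p = 9.24e-12). Satb1, which folds chromatin into loops in lymphocytes, read 20.8, 16.7, 16.5 and 23.04 in plasma cells, against 1287, 1176 and 1329.7 in naive cells, and fell by 6.05 ± 0.31. The inhibitory receptors Cd72 and Btla fell by 7.02 ± 0.17 with 2 of 4 plasma arrays above background and by 6.63 ± 0.23. Cd55, which shields cells from complement, fell by 7.25 ± 0.33 with 1 of 4 plasma arrays above background, the cytokine gene Ltb fell by 6.26 ± 0.24, and the innate immune gene Samd9l fell by 6.62 ± 0.27. The ubiquitin ligase gene Neurl3 fell by 6.61 ± 0.55 with 3 of 4 plasma arrays above background and Niban3 by 6.06 ± 0.16.

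For 5 of the 15 leading falls no plasma array was above background. Cnr2, the cannabinoid receptor of immune cells, read 5.88, 8.69, 7.46 and 8.27 in plasma cells, against 987, 1334 and 1388 in naive cells, at least 89.1-fold lower in plasma cells (adjusted p = 1.19e-08). B3gnt5, which starts the carbohydrate chain of lacto-series glycolipids, read 10.2, 8.53, 9.39 and 9.39 in plasma cells, against 1526, 896 and 1434 in naive cells, at least 91.2-fold lower. Evl, which promotes actin filament growth, was at least 79.7-fold lower, Egr3, a transcription factor induced by antigen receptor signals, at least 57.4-fold lower, and Lrmp, a membrane protein of the endoplasmic reticulum, at least 40.1-fold lower. The direct tests again differed by gene. Cd55 did not pass between plasma and germinal center cells (-0.77 ± 0.33, adjusted p = 0.117), with 1 of 4 plasma arrays above background. Lrmp was at least 41.2-fold lower in plasma than in germinal center cells (adjusted p = 8.69e-12).

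**Figure D3:**
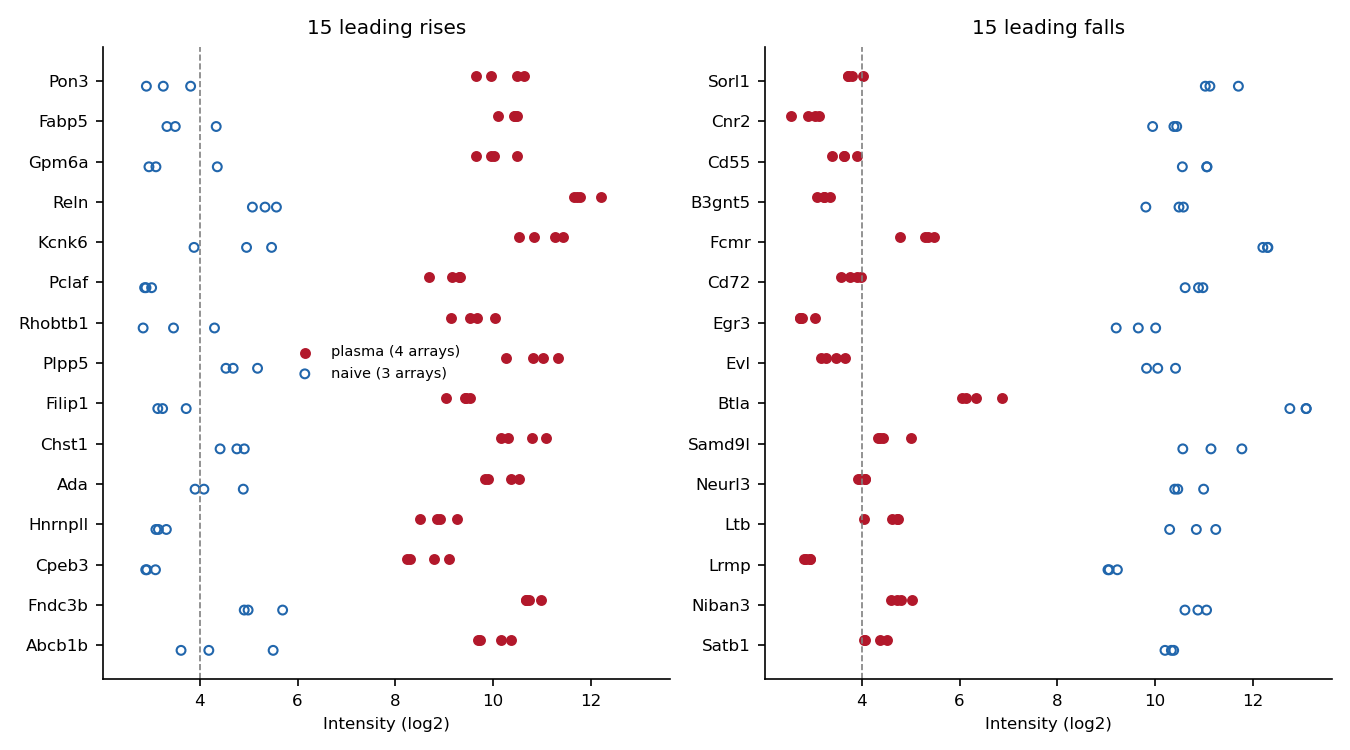
Log2 intensity (horizontal axis) of the 15 leading rises (left panel) and 15 leading falls (right panel), 1 row per gene, with filled points for the 4 plasma arrays and open points for the 3 naive arrays. Plasma and naive points are separated in every row, by the naming rule, and the dashed line marks the highest array background, 16.1.

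In all, 167 genes were above background on all 4 plasma arrays and no naive array, and 128 on all 3 naive arrays and no plasma array, the 3 rises and 5 falls just described among them. Among the plasma set were the orphan receptor Gpr160, which read 347, 378, 387 and 403 in plasma cells, against 7.20, 9.55 and 9.62 in naive cells (at least 29.1-fold higher), and Sgpp2, which removes phosphate from sphingosine 1-phosphate, at least 18.5-fold higher. The extracellular protein gene Mamdc2 was at least 17.5-fold higher, Frmd4b at least 16.8-fold higher and Oosp1, named for its expression in oocytes, at least 25.9-fold higher. Among the naive set, Smad1, which relays signals of bone morphogenetic proteins, read 11.2, 11.8, 10.4 and 12.6 in plasma cells, against 338, 292 and 514 in naive cells (at least 26.99-fold lower in plasma cells), and the interferon-inducible Ifit1bl1 was at least 33.5-fold lower. Both counts depended on where background was set: they were 895 and 19 with the second-brightest control as background, and 330 and 177 with a fixed background of 16.

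Most measured genes that make amino acids were higher in plasma cells. Of 23 measured genes of amino acid synthesis and one-carbon metabolism, 15 rose and 2 fell (65.2% against 14.2% of all genes for rises), with a median log2 fold change of 1.53, against 0.06 over all genes. Asns, which makes asparagine, read 434, 442, 476 and 455 in plasma cells, against 19.7, 14.1 and 26.8 in naive cells. It rose by 4.53 ± 0.33 (adjusted p = 8.74e-08), and the 4 plasma values lay within a narrow range. Chac1, which degrades glutathione, read 139, 152, 115 and 210.0 in plasma cells, against 23.6, 37.4 and 30.5 in naive cells (2.33 ± 0.19). Bcat1, which transfers amino groups of branched-chain amino acids, was at least 8.93-fold higher. The serine pathway genes Psat1 and Phgdh rose by 1.80 ± 0.17 and 1.53 ± 0.26, and the mitochondrial enzyme Shmt2, which feeds serine carbon into folates, by 2.32 ± 0.25. Got1, which makes aspartate, rose by 1.81 ± 0.30. Against this, Glul, which makes glutamine, read 21.1, 15.6, 20.4 and 25.6 in plasma cells, against 76.8, 116 and 72.1 in naive cells, and fell by 2.08 ± 0.34 with 3 of 4 plasma arrays above background. Against germinal center cells the difference of Asns did not pass (0.89 ± 0.33, adjusted p = 0.0678).

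The enzymes that load amino acids onto transfer RNAs were also higher or did not pass. Of 19 measured cytosolic tRNA synthetases, 13 rose and 0 fell, with a median of 0.87. Yars, for tyrosine, read 529, 783, 619 and 712 in plasma cells, against 121, 105 and 119.9 in naive cells (2.50 ± 0.22, adjusted p = 6.32e-07). Nars, for asparagine, rose by 1.83 ± 0.19, Tars, for threonine, by 1.81 ± 0.37, Aars, for alanine, by 1.31 ± 0.16 and Gars, for glycine, by 0.89 ± 0.20. Amino acid transporters were mixed, with 10 of 20 higher and 4 lower. Slc7a5, which carries large neutral amino acids, read 104, 156, 176 and 111 in plasma cells, against 29.2, 27.6 and 28.03 in naive cells (2.24 ± 0.17). Slc38a10 rose by 1.41 ± 0.25 and Slc1a4, which carries small neutral amino acids such as serine, by 1.93 ± 0.28 with 1 of 3 naive arrays above background. Slc43a2 and the taurine transporter Slc6a6 fell by 1.54 ± 0.23 and 1.53 ± 0.28.

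Many genes of amino acid supply are known targets of ATF4, a factor that binds composite C/EBP-ATF elements when amino acids are scarce. The element's core, TGATGNAA, was searched on both strands of the 250 bases upstream of the start site in RefSeq promoters of build GRCm38.p6, which were found for 14452 of the measured genes. It occurred in 2.84% of all these promoters, in 3.44% of those of genes at least 2-fold higher and in 2.56% of those of genes at least 2-fold lower. In the 2 lists above it occurred in 3 of 22 promoters of amino acid synthesis genes and 3 of 12 promoters of tRNA synthetases. Other lists also held it more often than all promoters, with 4 of 30 for nuclear receptors, 4 of 37 for the integrated stress response and mTORC1 and 2 of 15 for amino acid transporters. These 6 stretches are shown because all 6 genes rose, with the core or its reverse complement in capitals, and each is written 5′ to 3′ on the strand of its gene.
Asns: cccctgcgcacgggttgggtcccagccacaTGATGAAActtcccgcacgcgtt
Got1: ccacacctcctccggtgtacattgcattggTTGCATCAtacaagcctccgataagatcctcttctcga
Chac1: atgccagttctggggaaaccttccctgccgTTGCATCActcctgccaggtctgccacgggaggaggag
Aars: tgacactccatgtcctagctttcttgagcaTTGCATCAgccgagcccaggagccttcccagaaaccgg
Gars: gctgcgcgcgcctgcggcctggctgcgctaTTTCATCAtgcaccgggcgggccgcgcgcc
Tars: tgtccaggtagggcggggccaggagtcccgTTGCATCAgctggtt
They lie at chr6:7693210-7693262 (minus strand) for Asns, chr19:43524670-43524737 (minus) for Got1, chr2:119351019-119351086 (plus) for Chac1, chr8:111033700-111033767 (plus) for Aars, chr6:55037941-55038000 (plus) for Gars and chr15:11399659-11399703 (minus) for Tars. The matches began between 15 bases (Tars) and 193 bases (Chac1) upstream of the annotated start. A match is a description of the letters and not a site of binding. Atf4 itself read 1616, 979, 1152 and 1770.2 in plasma cells, against 1067, 2137 and 2011 in naive cells, with overlapping groups and no change that passed (-0.31 ± 0.34, adjusted p = 0.551). Trib3, another gene of the stress response that ATF4 serves, did not pass either (-0.46 ± 0.21, adjusted p = 0.126). These are transcript levels, and the part of ATF4 in the rises was not tested.

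In the wider list of the integrated stress response and of mTORC1, the kinase complex that couples growth to nutrients, 4 of 42 genes rose and 10 fell. Those were 9.52% and 23.8%, against 14.2% and 16.1% of all genes. The sestrins, which restrain mTORC1, were lower: Sesn3 read 29.2, 27.8, 33.2 and 18.7 in plasma cells, against 403, 276 and 367 in naive cells (-3.69 ± 0.21) and Sesn1 fell by 2.75 ± 0.30. Ddit4, another brake on mTORC1, fell by 1.75 ± 0.36, and Flcn, which acts on the lysosomal branch of the pathway, by 1.66 ± 0.28. Tbc1d7, a subunit of the tuberous sclerosis complex, rose by 1.92 ± 0.17 with 2 of 3 naive arrays above background. Eif2ak4, the kinase that senses uncharged transfer RNA, read 86.1, 81.2, 106 and 63.99 in plasma cells, against 459, 469 and 568 in naive cells, and fell by 2.58 ± 0.18 (adjusted p = 6.17e-08).

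Among enzymes and carriers of sugar nucleotides, the donors for protein glycosylation, most were higher. Of 28 measured, 15 rose and 2 fell (median 0.80). Slc35b1, the exchanger that brings ATP into the endoplasmic reticulum, read 1149.9, 626, 724 and 786 in plasma cells, against 82.6, 61.4 and 69.03 in naive cells (3.50 ± 0.29, adjusted p = 2.89e-07). Nans, which makes sialic acid, rose by 3.24 ± 0.16. Both subunits of the enzyme that makes GDP-mannose rose, Gmppa by 3.17 ± 0.31 and Gmppb by 3.13 ± 0.20. Ugdh, which makes UDP-glucuronic acid, fell by 1.98 ± 0.25, and Fpgt by 1.42 ± 0.24. In nucleotide synthesis, 11 of 27 genes rose (40.7%) and 3 fell (11.1%), against 14.2% and 16.1% of all genes. Cad, which catalyses the first steps of pyrimidine synthesis, read 896, 915, 962 and 1003 in plasma cells, against 205, 225 and 192 in naive cells (2.19 ± 0.29), Adk rose by 2.72 ± 0.32 and Impdh1, on the path to guanine nucleotides, by 1.77 ± 0.20. The mitochondrial kinase Dguok fell by 2.66 ± 0.20 and Ctps2 by 2.20 ± 0.20.

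**Figure D4:**
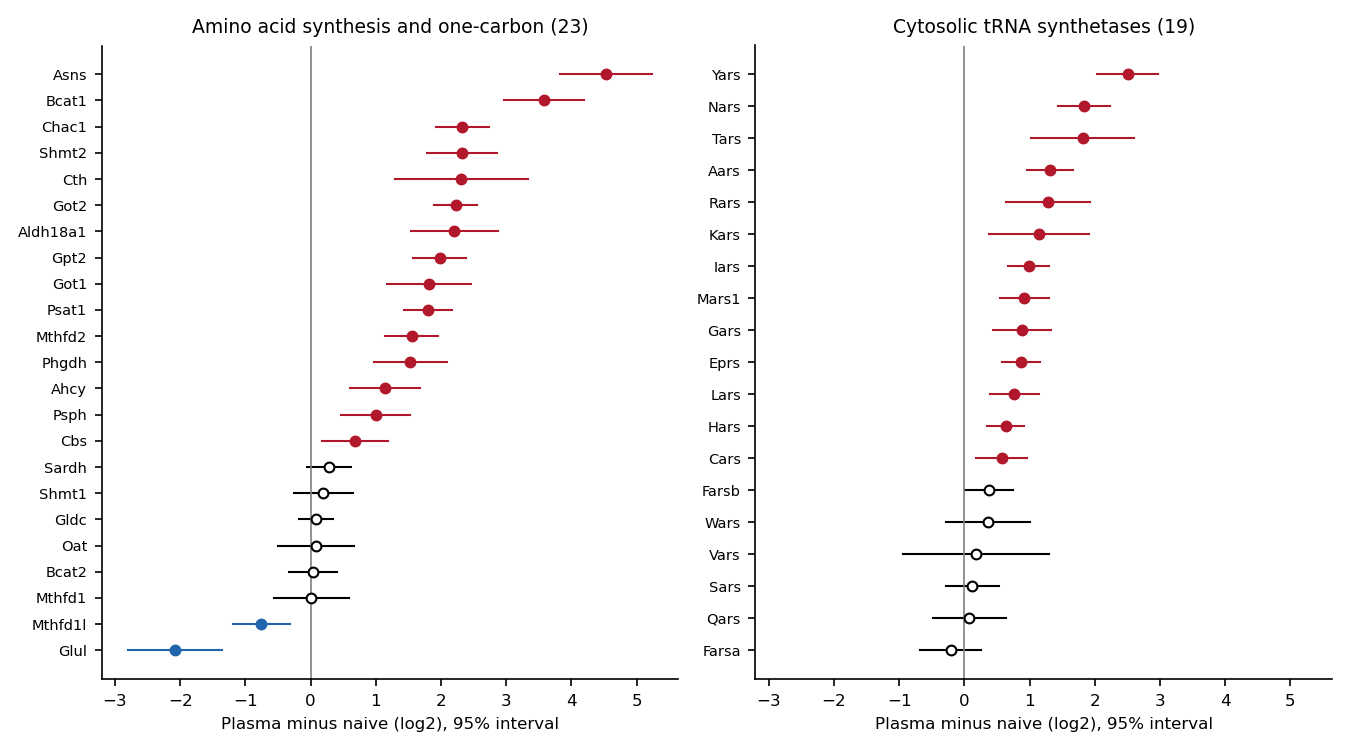
Log2 fold change, plasma minus naive, with its 95% confidence interval (horizontal axis) for every measured gene of amino acid synthesis and one-carbon metabolism (left panel, 23 genes) and of the cytosolic tRNA synthetases (right panel, 19 genes), 1 row per gene. Filled points passed at an adjusted p under 0.05, of which 15 in the left panel and 13 in the right panel lie above 0. Bcat1 is drawn at its fitted value, although no naive array was above background.

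Energy metabolism was split. In glycolysis and the pentose phosphate pathway 7 of 29 genes rose (24.1%) and 7 fell (24.1%), against 14.2% and 16.1% of all genes. Pkm, the pyruvate kinase, read 636, 711, 754 and 755 in plasma cells, against 167, 149.8 and 116 in naive cells (2.32 ± 0.30), Hk2, which traps glucose in the cell, rose by 2.23 ± 0.23 with 2 of 3 naive arrays above background and Tpi1 by 1.71 ± 0.13. The glucose transporter Slc2a1 read 262, 254, 254 and 281 in plasma cells, against 923, 1539 and 949 in naive cells, and fell by 2.07 ± 0.25, and its relative Slc2a3 fell by 2.18 ± 0.29. The glycolytic enzyme Aldoc fell by 1.72 ± 0.24. In the citric acid cycle 8 of 27 rose (29.6%) and 3 fell (11.1%), led by Idh2 (2.46 ± 0.22) and with Fh1 lower (-1.06 ± 0.12). Of 30 genes of mitochondrial protein import 8 rose (26.7%) and 4 fell (13.3%). Timm21, of the inner membrane translocase, rose by 2.03 ± 0.33, and the mitochondrial chaperone Hspa9 fell by 1.29 ± 0.19. Another probe set of Hspa9 rose by 0.55 ± 0.12, but it was below background on every plasma and naive array. With the mean of its probe sets Hspa9 did not pass (-0.14, adjusted p = 0.312). Mitochondrial ribosomal proteins had 21 of 76 higher (27.6%) and 11 lower (14.5%). Cytosolic ribosomal proteins had 1 of 48 higher (Rps27l, 1.92 ± 0.21) and 18 lower (37.5%). The median of the cytosolic proteins was -0.39 as deposited and -0.15 with arrays centred on bright genes.

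Lipid genes split by enzyme. The largest fall was that of Scd1, which introduces the double bond of oleic acid. It read 77.8, 63.5, 85.8 and 65.01 in plasma cells, against 4981, 4143 and 4844 in naive cells, and fell by 6.00 ± 0.17 (adjusted p = 1.05e-11). The desaturases of polyunsaturated fatty acids moved the other way. Fads1 read 88.7, 123, 107 and 63.05 in plasma cells, against 9.91, 11.9 and 13.8 in naive cells (2.97 ± 0.33 with 2 of 3 naive arrays above background), while Fads3 was at least 6.21-fold and Fads2 at least 2.74-fold higher. Elovl6, which lengthens fatty acids, rose by 1.65 ± 0.29. In all, 9 of 28 genes of fatty acid synthesis and oxidation rose (32.1%) and 6 fell (21.4%), against 14.2% and 16.1% of all genes. In phospholipid synthesis 8 of 34 rose (23.5%) and 9 fell (26.5%). Agpat5 rose by 2.39 ± 0.19 and Crls1, which makes cardiolipin, by 2.05 ± 0.26. Gpat3, which starts glycerolipid synthesis, read 10.3, 11.6, 8.91 and 8.98 in plasma cells, against 321, 340.4 and 270.0 in naive cells, at least 22.5-fold lower in plasma cells, and Lpcat1 fell by 1.66 ± 0.14. Of 27 sphingolipid genes 4 rose (14.8%, near the 14.2% of all genes), led by the ceramide synthase Cers6 (2.53 ± 0.28 with 2 of 3 naive arrays above background). In the same list 8 fell (29.6%), among them Cerk (-1.51 ± 0.26). The majorities in the phospholipid and sphingolipid lists turned with arrays centred on bright genes.

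Of 35 genes of calcium stores and channels 9 rose (25.7%) and 6 fell (17.1%), against 14.2% and 16.1% of all genes. The share lower was near that of all genes, and the median was 0.00. With the mean of all probe sets 7 were higher and 8 lower. Kcnn4, the calcium-activated potassium channel of lymphocytes, read 7898, 6407, 6529 and 10731 in plasma cells, against 328, 497 and 468 in naive cells (4.19 ± 0.21, adjusted p = 2.07e-09). Atp2a2, the pump that fills the calcium store of the endoplasmic reticulum, read 7122, 6538, 8677 and 6575 in plasma cells, against 1912, 1455 and 1785 in naive cells (2.07 ± 0.18). Saraf, which turns off store-operated calcium entry, rose by 2.92 ± 0.36, and Tmco1, a channel that releases excess store calcium, by 1.53 ± 0.17. On the other side, the store release channel Itpr2 fell by 2.17 ± 0.23, the kinase Camk1d by 2.59 ± 0.44, the calcineurin subunit Ppp3ca by 1.34 ± 0.24 and the entry channel Orai2 by 0.84 ± 0.22. Orai2 did not pass with arrays centred on bright genes, without naive array 1, or with plasma arrays 1 and 4 alone (adjusted p = 0.0548, 0.0557 and 0.0652).

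In 3 lists of signalling genes downstream of surface receptors more members fell than rose. Of 33 regulators of Ras and Rap, 16 fell and 2 rose, a share of 48.5% lower against 16.1% of all genes, with a median of -0.53 (-0.28 with arrays centred on bright genes). Rasgrp1, which activates Ras in response to diacylglycerol, read 23.04, 28.5, 28.6 and 25.99 in plasma cells, against 1229, 1099 and 1324 in naive cells, and fell by 5.52 ± 0.19 (adjusted p = 6.91e-11). Ralgps2 and Rras2 fell by 2.47 ± 0.21 and 2.58 ± 0.26, and Rap1a rose by 1.08 ± 0.23. In phosphoinositide and diacylglycerol signalling 14 of 36 fell (38.9%) and 4 rose (11.1%, against 14.2% of all genes). Pik3ap1, an adaptor of the lipid kinase in B cells, read 38.6, 53.04, 55.8 and 47.5 in plasma cells, against 911, 1128 and 959 in naive cells, and fell by 4.37 ± 0.16. The phospholipase Plcg1 and the phosphatase Phlpp1 fell by 2.62 ± 0.27 and 2.13 ± 0.19, and Pik3r5, a regulatory subunit, rose by 1.89 ± 0.22. Pik3cd was called higher (3.70 ± 0.80, adjusted p = 0.00247), but its plasma values were spread widely, as given above, and it was 2.96 without plasma array 2 and 4.46 without plasma array 1. Another of its 6 probe sets fell by 0.78 ± 0.23 (adjusted p = 0.0221). This dimmer probe set read 14.0 to 22.3 in plasma cells, against 24.6 to 35.9 in naive cells. In cyclic nucleotide signalling 12 of 31 fell (38.7%) and 4 rose (12.9%). The phosphodiesterase Pde2a read 106, 105, 78.2 and 117 in plasma cells, against 4125, 3565 and 3602 in naive cells, and fell by 5.22 ± 0.31, and Pde4b and Pde7a by 3.44 ± 0.25 and 2.53 ± 0.15. Akap1, which anchors protein kinase A to mitochondria, rose by 1.56 ± 0.20 with 1 of 3 naive arrays above background.

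**Figure D5:**
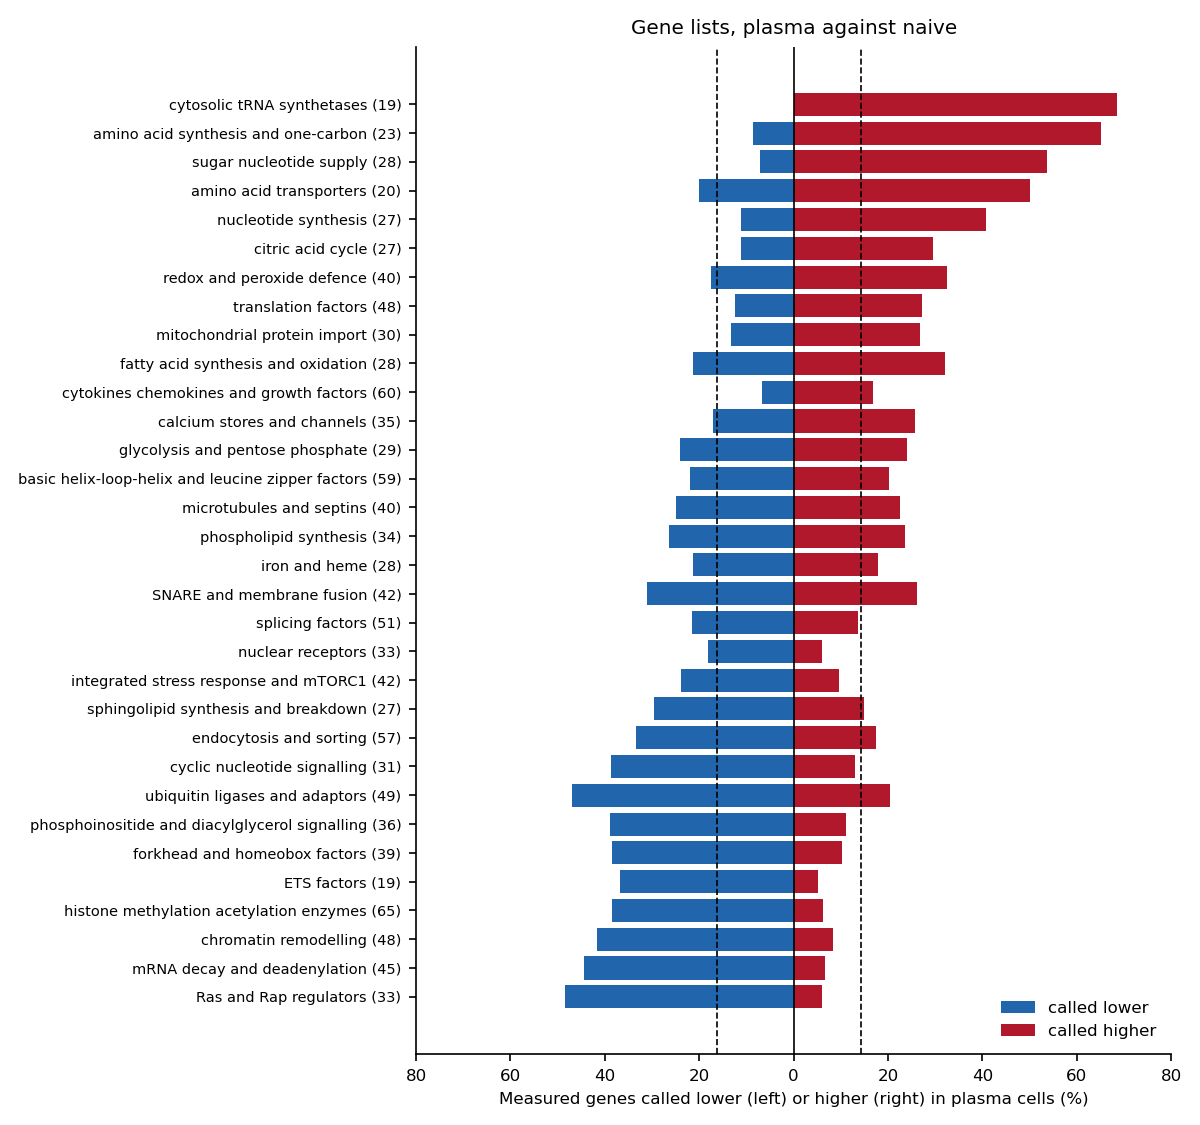
Share of measured genes called higher (bars to the right) and called lower (bars to the left) in plasma cells, in percent (horizontal axis), for the functional gene lists, 1 row each with the number measured, ordered by the difference. Dashed lines mark the shares over all 18193 genes, 14.2% higher and 16.1% lower. Cytosolic tRNA synthetases reach 68.4% higher and Ras and Rap regulators 48.5% lower.

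Protein turnover showed a contrast between ligases and the proteasome. Of 40 genes with proteasome symbols 21 rose and 0 fell (median 0.61), although Psmc3ip among the 21 is a recombination factor and not a subunit. Psmb7, a catalytic subunit, read 107, 133, 93.1 and 72.4 in plasma cells, against 23.3, 21.3 and 20.8 in naive cells (2.18 ± 0.27), and Psmd8 rose by 1.38 ± 0.26. Psma1 rose by 1.10 ± 0.23 on its brightest probe set, but was -0.08 over the mean of its probe sets. Of 49 ubiquitin ligases and adaptors 10 rose (20.4%) and 23 fell (46.9%), against 14.2% and 16.1% of all genes (median -0.57). Klhl6, an adaptor needed for mature B cells, read 123, 139, 114 and 145 in plasma cells, against 2805, 2765 and 2601 in naive cells, and fell by 4.39 ± 0.21 (adjusted p = 1.31e-09). Cblb, which restrains antigen receptor signalling, fell by 3.99 ± 0.50, Rnf144a fell by 4.85 ± 0.19 and Klhl24 fell by 4.51 ± 0.36. Skp2, which targets the cell cycle inhibitor p27, rose by 2.25 ± 0.34 and Nedd4 by 2.07 ± 0.34. The deubiquitinase Usp25 fell by 4.45 ± 0.28.

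Regulators of RNA stability were more often lower than higher. Of 45 genes of mRNA decay and deadenylation 20 fell and 3 rose (median -0.53). Zfp36l2 and Zfp36l1, which destabilise messages with AU-rich elements, were both lower. Zfp36l1 read 847, 606, 1021 and 732 in plasma cells, against 3770.4, 3101 and 3608 in naive cells, and fell by 2.15 ± 0.20 (adjusted p = 9.73e-07), and Zfp36l2 fell by 3.44 ± 0.44. The deadenylase subunit Cnot2 fell by 1.54 ± 0.13, and N4bp1, an RNase, rose by 2.14 ± 0.25. Among splicing factors 7 of 51 rose (13.7%), Hnrnpll among them, and 11 fell (21.6%), shares near those of all genes, and with arrays centred on bright genes 13 were higher and 9 lower. The kinase Clk1, which phosphorylates splicing factors, fell by 1.72 ± 0.27 and Srsf2 rose by 1.51 ± 0.40 (adjusted p = 0.0101), which did not pass with plasma arrays 1 and 4 alone (adjusted p = 0.115). Translation factors had 13 of 48 higher (27.1%) and 6 lower (12.5%), against 14.2% and 16.1% of all genes. Etf1, which releases the finished chain at stop codons, read 2308, 2422, 2378 and 1769 in plasma cells, against 624, 505 and 446 in naive cells (2.08 ± 0.28), and Eif3b and Eif2s2 rose by 1.48 ± 0.33 and 1.44 ± 0.35.

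Among chromatin enzymes more fell than rose. Of 65 enzymes of histone methylation and acetylation 25 fell and 4 rose (median -0.51). The histone demethylases Kdm7a and Kdm5b fell by 2.77 ± 0.38 and 2.16 ± 0.26, and the deacetylase Hdac9 by 3.37 ± 0.45 with 2 of 4 plasma arrays above background. Nsd2, a methyltransferase of histone H3, read 312, 360.0, 317 and 359.9 in plasma cells, against 118, 96.00 and 59.7 in naive cells, and rose by 1.94 ± 0.31. Of 48 remodelling genes 20 fell and 4 rose. Mta3, a subunit of the NuRD complex, read 24.1, 13.7, 14.96 and 18.4 in plasma cells, against 635, 601 and 488 in naive cells, and fell by 5.04 ± 0.21 with 3 of 4 plasma arrays above background (adjusted p = 3.03e-10). Arid5b and Chd3 fell by 2.23 ± 0.25 and 2.07 ± 0.23, and Arid3a rose by 1.34 ± 0.25. The large Zfp family of zinc finger genes had 108 of 336 members lower (32.1%) and 18 higher (5.36%). Zfp318, which is needed for IgD in mature B cells, read 20.02, 18.3, 23.4 and 14.9 in plasma cells, against 1593, 582 and 633 in naive cells, and fell by 5.47 ± 0.45, and Zfp608 fell by 3.93 ± 0.24.

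Of 59 basic helix-loop-helix and leucine zipper factors 12 rose and 13 fell, and with arrays centred on bright genes 18 were higher and 11 lower. Creb3l2, released from the Golgi by cleavage, read 2153, 1096, 1751 and 2245 in plasma cells, against 84.6, 53.9 and 46.2 in naive cells (4.87 ± 0.30, adjusted p = 1.73e-08). Atf6, a sensor of unfolded proteins, rose by 3.13 ± 0.24, and its relative Atf6b by 1.47 ± 0.20. The clock output factor Dbp fell by 2.92 ± 0.21 and Bhlhe40 by 2.70 ± 0.25. Of 19 ETS factors 7 fell and 1 rose. Ets1, known to hold back plasma cell differentiation, read 112, 63.6, 70.6 and 92.1 in plasma cells, against 2051, 2414 and 2736 in naive cells, and fell by 4.85 ± 0.25 (adjusted p = 2.17e-09), and Elk3, Elf2 and Fli1 fell by 2.00 ± 0.24, 1.95 ± 0.33 and 1.80 ± 0.48. Of 39 forkhead and homeobox factors 15 fell and 4 rose. Foxo1 read 698, 693, 739.8 and 702 in plasma cells, against 2657, 1772 and 2217 in naive cells (-1.63 ± 0.16), Zeb2 was at least 6.47-fold lower in plasma cells and Foxm1, a driver of mitotic genes, rose by 1.07 ± 0.17. Among nuclear receptors and their partners 2 of 33 rose (6.06%) and 6 fell (18.2%), the latter near the 16.1% of all genes. Esr1, the estrogen receptor, was lower (-2.09 ± 0.23 with 2 of 4 plasma arrays above background).

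Further promoter motifs were counted in the same 250 bases on both strands. The unfolded protein response element TGACGTGG, bound by XBP1 and ATF6, occurred in 1.94% of promoters of genes at least 2-fold higher, in 0.937% of those at least 2-fold lower and in 0.865% of all. The core AAGTGAAA, shared by interferon-sensitive elements and by sites of the repressor PRDM1, showed the opposite order, with 0.706% of the higher, 2.69% of the lower and 1.47% of all promoters. The ranking that follows left out immunoglobulin genes, placeholder symbols and the genes set aside above, secretion machinery among them. Genes with overlapping arrays were left out too. The largest remaining rises with the first element were those of Isg20, an exonuclease gene (3.74 ± 0.30), Lrrc59, a membrane protein of the endoplasmic reticulum (3.45 ± 0.24), Tfdp1, the partner of E2F (3.02 ± 0.30), and Hk2. The largest remaining falls with the second were those of Ncf1, a subunit of the phagocyte oxidase (-6.03 ± 0.19), the kinase Sgk1 (-3.79 ± 0.27), Bank1, a scaffold of B cell receptor signalling (-3.72 ± 0.21), and the channel gene Calhm6 (-3.25 ± 0.29). These stretches are shown because the genes lead their groups after those exclusions. The motif is in capitals, first in the 4 that rose and then in the 4 that fell.
Isg20: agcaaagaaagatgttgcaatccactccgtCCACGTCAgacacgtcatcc
Lrrc59: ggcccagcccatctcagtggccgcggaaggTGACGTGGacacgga
Tfdp1: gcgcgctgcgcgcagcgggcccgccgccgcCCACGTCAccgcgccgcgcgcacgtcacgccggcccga
Hk2: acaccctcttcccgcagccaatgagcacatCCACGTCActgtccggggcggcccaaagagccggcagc
Ncf1: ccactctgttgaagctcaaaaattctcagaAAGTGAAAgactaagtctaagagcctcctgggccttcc
Sgk1: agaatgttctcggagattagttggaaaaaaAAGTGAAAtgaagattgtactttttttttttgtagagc
Bank1: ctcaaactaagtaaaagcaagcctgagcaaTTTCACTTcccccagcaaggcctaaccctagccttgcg
Calhm6: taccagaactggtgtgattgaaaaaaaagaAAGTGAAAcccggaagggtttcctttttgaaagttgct
They lie at chr7:78913715-78913764 (plus strand) for Isg20, chr11:94629732-94629776 (plus) for Lrrc59, chr8:13338726-13338793 (plus) for Tfdp1, chr6:82774470-82774537 (minus) for Hk2, chr5:134229668-134229735 (minus) for Ncf1, chr10:21993706-21993773 (plus) for Sgk1, chr3:136326095-136326162 (minus) for Bank1 and chr10:34127997-34128064 (minus) for Calhm6, all in GRCm38.p6. Isg20, Tfdp1, Hk2 and Bank1 carry the reverse complement of the motif. The E-box CACGTG occurred in 9.97% of the promoters of the higher, 11.6% of those of the lower and 8.73% of all genes, and CCAAT in 46.5%, 39.3% and 39.4%. The element TTTGAA of cell cycle genes occurred in 13.2% of the promoters of the higher, 13.1% of those of the lower and 14.1% of all genes.

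Membrane traffic genes moved in both directions. In SNARE and fusion genes 11 of 42 rose (26.2%) and 13 fell (31.0%), against 14.2% and 16.1% of all genes. With arrays centred on bright genes 17 were higher and 11 lower. Sec22b, a SNARE of transport between endoplasmic reticulum and Golgi, read 1451, 978, 1066 and 1005 in plasma cells, against 183, 172 and 271 in naive cells (2.44 ± 0.30) and Bet1 rose by 2.52 ± 0.21 and Stx18 by 1.55 ± 0.21. Vamp7, of late endosomes and lysosomes, rose by 2.84 ± 0.23. Stx6, of the trans-Golgi network and endosomes, read 125, 74.5, 97.5 and 103 in plasma cells, against 415, 594 and 408 in naive cells, and fell by 2.24 ± 0.36, and Stx17, of autophagosomes, fell by 2.48 ± 0.46 and by 3.14 without naive array 2. Another probe set of Stx6, below background on every naive array, rose by 0.60 ± 0.19 (adjusted p = 0.0293). Of 57 genes of endocytosis and sorting 10 rose (17.5%, near the share of all genes) and 19 fell (33.3%). With arrays centred on bright genes 17 were higher and 15 lower. Vps26b, of the retromer, read 325, 369.8, 309 and 371 in plasma cells, against 12.7, 28.3 and 13.5 in naive cells (4.34 ± 0.28 with 2 of 3 naive arrays above background, adjusted p = 3.18e-08), and the clathrin adaptor Ap2b1 rose by 1.99 ± 0.25. Gga2, an adaptor of the trans-Golgi network, read 561, 508, 534 and 569 in plasma cells, against 4296, 3324 and 3285 in naive cells, and fell by 2.73 ± 0.17, and Eps8 was at least 9.49-fold lower. Rab1a, of early secretory transport, rose by 2.13 ± 0.20 and the recycling Rab11b fell by 2.43 ± 0.19. Of 40 genes of microtubules and septins 9 rose (22.5%) and 10 fell (25.0%). With arrays centred on bright genes 15 were higher and 7 lower. The tubulins Tubb2a and Tubb6 rose by 2.48 ± 0.40 and 2.63 ± 0.26, and Stmn1, which takes microtubules apart, by 3.24 ± 0.21. Marcksl1, which binds actin and membranes, read 24.4, 41.1, 24.4 and 18.2 in plasma cells, against 407, 496 and 420.0 in naive cells, and fell by 4.09 ± 0.34, and the microtubule-binding Map4 fell by 1.78 ± 0.45 (adjusted p = 0.00721). Map4 did not pass without naive array 1 or with plasma arrays 2 and 3 alone (adjusted p = 0.0504 and 0.0962).

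Of 40 redox genes 13 rose (32.5%) and 7 fell (17.5%). Prdx4, the peroxiredoxin of the endoplasmic reticulum, read 2953, 2125, 2235 and 2948 in plasma cells, against 204, 210.2 and 148 in naive cells (3.77 ± 0.26, adjusted p = 6.03e-08), Txn1 rose by 2.73 ± 0.27 and the selenoprotein gene Selenok by 2.58 ± 0.24. Catalase (Cat) fell by 1.61 ± 0.31, Txnip, which binds thioredoxin, by 1.67 ± 0.20 and the stress regulator Nfe2l2 by 1.48 ± 0.22. Of 28 genes of iron and heme 5 rose (17.9%) and 6 fell (21.4%), shares near those of all genes, and with arrays centred on bright genes 11 were higher and 6 lower. Slc11a1, a metal transporter best known in macrophages, read 61.7, 50.4, 64.8 and 63.9 in plasma cells, against 9.87, 12.8 and 9.05 in naive cells (2.52 ± 0.20 with 1 of 3 naive arrays above background), and unlike Slc40a1 it was similar on all 4 plasma arrays. Blvra and Blvrb, both biliverdin reductases, moved apart, by 1.24 ± 0.16 and -3.05 ± 0.22. Urod, of heme synthesis, read 152, 153, 157 and 258 in plasma cells, against 805, 855 and 633 in naive cells (-2.11 ± 0.21). Its other probe set rose by 1.03 ± 0.26 (adjusted p = 0.00834), at 34.6 to 62.0 in plasma cells, against 15.6 to 28.9 in naive cells.

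At the surface, 1 of 36 interleukin receptor genes rose (2.78%) and 7 fell (19.4%), against 14.2% and 16.1% of all genes. The share lower was thus near that of all genes, and 12 of the 36 were above background on no plasma or naive array. Il13ra1, a receptor chain for interleukin 13, read 159, 138, 141 and 96.9 in plasma cells, against 8.55, 9.36 and 10.1 in naive cells, at least 10.1-fold higher (adjusted p = 3.52e-10). Il27ra read 22.97, 19.7, 23.5 and 16.7 in plasma cells, against 495, 553 and 453 in naive cells (-4.60 ± 0.24) and Il10ra fell by 2.79 ± 0.16. Of 60 cytokine, chemokine and growth factor genes 10 rose (16.7%) and 4 fell (6.67%), at low levels for most. The share higher was near the 14.2% of all genes, and 26 of the 60 were above background on no plasma or naive array. Il15, which sustains lymphocytes, was at least 2.50-fold higher, Cxcl16 rose by 1.78 ± 0.22 and Mif by 1.08 ± 0.19. The adhesion receptor subunits Itgb1 and Itga4 rose by 2.12 ± 0.40 and 1.41 ± 0.26, while Itga6 and Itgb7 fell by 2.63 ± 0.19 and 1.24 ± 0.28. Cd44, which binds hyaluronan, read 1781, 1270.0, 1315 and 1504 in plasma cells, against 199, 240.2 and 203 in naive cells (2.77 ± 0.25). Gpr18 and Gpr137b fell by 3.57 ± 0.18 and 4.02 ± 0.39, and Tmem176b rose by 4.84 ± 0.31. Among Schlafen and guanylate-binding genes 0 of 15 rose and 7 fell, with Slfn8 at 34.2, 39.9, 43.4 and 38.9 in plasma cells, against 1419, 1029 and 1369 in naive cells (-5.01 ± 0.14).

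Neighbouring genes moved together at 11 places, counted as runs of at least 5 measured neighbours called in the same direction, 4 higher and 7 lower. Gene order came from the RefSeq table, and neighbours can share probe similarity or family membership, so the runs are a description. The longest was the Gimap cluster on chromosome 6, where 8 neighbours fell. These genes encode GTPases that support lymphocyte survival. Gimap8 read 109, 137, 95.7 and 55.6 in plasma cells, against 4324, 3759 and 5180.3 in naive cells, and fell by 5.54 ± 0.28 (adjusted p = 1.95e-09). The others fell by between 1.40 and 3.44, and Gimap7 read 88.8, 151, 79.00 and 117 in plasma cells, against 1194, 1312 and 959 in naive cells (-3.44 ± 0.23). On chromosome 19 the 3 desaturase genes Fads1, Fads2 and Fads3 lay in a run of 6 that rose, with the flap endonuclease Fen1 (1.64 ± 0.19) and Tmem258 (0.98 ± 0.21). A run of 6 Trim genes on chromosome 7, antiviral ubiquitin ligases, fell, with Trim34a at 89.9, 83.3, 150.1 and 73.9 in plasma cells, against 2886, 2658 and 2814 in naive cells (-4.87 ± 0.26) and Trim5 lower as well (-3.86 ± 0.26). Others that fell were Ms4a genes on chromosome 19 and 5 class II histocompatibility genes on chromosome 17 (H2-Ob, H2-Ab1, H2-Aa, H2-Eb1 and H2-Eb2). Serpinf1 and Serpinf2 lay in a run of 5 on chromosome 11 that rose, and Cpeb3 in another on chromosome 19.

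The choice of 1 probe set per gene decided some directions. Of 1878 genes with at least 2 probe sets called, 250 (13.3%) had probe sets called in opposite directions, 53 of them by at least 2-fold both ways. No background filter was applied here, and some of these probe sets lay below background in both groups. The rising probe set of Hspa9, for example, read 8.62 to 10.2 in plasma cells, against 6.23 to 6.40 in naive cells. Laptm5, a lysosomal protein gene of blood cells, led this group. Its bright probe set read 927, 1073, 1209 and 1047 in plasma cells, against 9225, 10552 and 9932 in naive cells (-3.22 ± 0.14). Another of its 5 probe sets rose by 2.82 ± 0.69, but differed widely between plasma arrays. It read 68.2, 426, 984 and 90.6 on plasma arrays 1 to 4, against 26.9, 33.2 and 36.5 in naive cells. Mtm1, a lipid phosphatase, had a bright probe set that rose (3.70 ± 0.32) and another that fell by 1.85 ± 0.38. Ifnar2, a subunit of the interferon receptor, rose by 1.77 ± 0.27 on 1 probe set and fell by 1.79 ± 0.26 on another, and Glipr1 rose by 2.93 ± 0.14 and fell by 1.90 ± 0.37. Kdm7a, Egr3 and Esr1, given above as lower, each had another probe set that rose, by 1.01 ± 0.21, 0.62 ± 0.21 and 0.37 ± 0.12. Those probe sets were below background on every naive array. Which transcripts or sequences the opposing probe sets recognise was not tested.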

How the data were processed

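The deposited values are linear intensity values of 45101 probe sets on 14 arrays of an Affymetrix platform. RMA, a method that corrects background, normalizes and summarises probes, is named in the submitters' processing notes; its version is not given in the sources used here. The authors' intensity values were put on the log2 scale without further scaling, and 64 control probe sets were left out. Of the others, 34945 carried 1 gene symbol, 932 several and 9160 none, and the brightest probe set over all arrays stood for each of 18193 genes. Each plasma array had 53.3 to 63.6% of genes above background, and each naive array 52.7 to 64.6%. The number of arrays limits the precision.

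limma 3.58.1 in R 4.3.3 fitted all 14 arrays by group with empirical Bayes moderation, and p-values were adjusted over all genes by the Benjamini-Hochberg method. The fit was tested on simulated data. Calls were made below an adjusted p of 0.05. The named genes are the largest called changes with non-overlapping arrays among all genes, in each list and in each family. They are also the brightest genes measured in 1 group alone, members of neighbour runs and genes with opposing probe sets. Left out of the changes among all genes and of the genes measured in 1 group alone were immunoglobulin genes, placeholder symbols and a list set aside. That list held secretion machinery, cell cycle, well-known markers and genes known from earlier results. Genes with printed promoters, genes given as spread between arrays, Atf4, Trib3, Psat1, Phgdh, Psmd8, Psma1 and Eef1a1 were added after their values were seen. A gene list is not reported here. The members and lists were chosen with earlier results of these data known. Alternatives changed the scaling, the filter, the choice of probe set, the moderation, the arrays fitted, the replicate block, the floor, the threshold and a covariate for the actin 3′ to middle ratio.

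RNA quality measures moved with the groups. The actin 3′ to middle ratio averaged 6.27 ± 0.716 in plasma cells, against 4.79 ± 0.464 in naive cells (SD, n = 4 and 3), and the GAPDH ratio 6.91 ± 1.23 in plasma cells, against 10.6 ± 1.29 in naive cells. Spiked controls averaged 9.65 ± 0.570 in log2 units in plasma cells, against 11.2 ± 0.456 in naive cells. The part of these differences in the results was not tested beyond the alternatives.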

Additional observations from a re-analysis of the deposited data

Results flagged for a closer look

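In 12 of 227 genes checked (5.29%), 1 plasma array lay far from the other 3, by a measure that chance meets in about 1 of 20 groups. Plasma array 3 stood apart for 4 genes. It was high for Fos (3992), Egr1 (750.3) and Egr3 (8.25, below background), which are immediate early or activation genes, and low for the clock output factor Dbp (48.3). Plasma array 4 was high for Urod (258), of heme synthesis, and Ncf1 (29.8), of the phagocyte oxidase, and low for Fabp5 (1101) and Etf1 (1769). Plasma array 1 was high for Samd9l (32.2) and low for Stmn1 (2738), and plasma array 2 was low for Bank1 (411) and Ppp3ca (101). Apart from Fos and Egr1, which were not called, these genes kept plasma arrays on 1 side of naive arrays.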

How the results depend on the processing

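The count of called genes was 3946 to 5832 under the alternatives other than centring. Leaving out 1 replicate gave 4547 to 5241 called genes, 2030 to 2469 of them higher and 2517 to 2772 lower (44.6 to 47.1% higher). Centring on bright genes called 4753 higher and 2301 lower, 67.4% higher, and centring on array medians gave 34.1% higher. Centring on spiked controls, chosen after seeing the data, moved the median by 1.61 and called 15823 genes, 15347 higher and 476 lower (97.0% higher). Genes measured in plasma cells alone numbered 895 and in naive cells alone 19 with the second-brightest control as background, and plasma-only genes 330 with a floor of 16. With the 2 plasma arrays that share high Car7 (2 and 3) 4210 genes were called, and with arrays 1 and 4 4629, also chosen after seeing the data.

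Of 222 named genes called, 12 lost the call without a change of sign under some of 21 settings. They were Cd5l, Csf1r, Slc40a1 and Map4 with plasma arrays 2 and 3 alone, Eif2s2, Fli1, Itgb7, Orai2 and Srsf2 with plasma arrays 1 and 4 alone, and Glipr1, Hspa9 and Slc6a6 with the mean of all probe sets. Slc40a1, Csf1r and Cd5l also lost it with a floor of 16 (adjusted p = 0.110, 0.0502 and 0.189). So did they with the replicate block over 7 arrays and, with Srsf2 and Fli1, at an adjusted p under 0.01. In all, Cd5l lost it under 10 settings, Csf1r under 8 and Slc40a1 under 4. Leaving out naive array 1 ended the calls of Orai2, Map4, Csf1r and Cd5l, and leaving out plasma array 4 or naive array 3 those of Csf1r and Cd5l, the last also without plasma array 1. Not counted among the 12, the called rises of Psma1 and Ifnar2 turned to -0.08 and -0.28 with the mean of all probe sets. Differences near 0 changed sign: Eef1a1 was 0.08 with bright-gene centring and 0.00 with the actin covariate, and Atf4 0.03 with plasma arrays 1 and 4. Under quantile normalization, Ppp3ca against germinal center cells was 0.06 and Eef1a1 against memory cells 0.07, and Sesn1 against germinal center cells was -0.01 with median centring. The causes were not tested. Same-numbered plasma and naive arrays had correlated deviations of -0.22, -0.06 and 0.25, so the numbers were not taken as pairs. With the replicate block 5076 genes were called over all arrays (2338 higher and 2738 lower, 46.1% higher) and 5145 over 7 arrays. The majority turned in 9 of 33 lists under some setting: phospholipid, sphingolipid, calcium, splicing, iron and heme, basic helix-loop-helix and leucine zipper factors, SNARE, endocytosis and microtubules.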
